A study of Homo sapiens with 12 samples.

Results

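The mitotic cell cycle genes described here are 45 genes that carry cells from the onset of mitosis to cytokinesis, and they were followed in cytoplasmic RNA of U2OS, a human osteosarcoma cell line. Members were taken by gene symbol: 44 of the 45 had probe sets under their own symbol, among 16883 genes tested in all, and every one of the 44 passed the filter on dim probe sets. CDK1 is the exception, because the array annotation lists probe sets only under CDC2, an older symbol that RefSeq now gives as a synonym of both CDK1 and POLD1. The U2OS line stably carries K294A, an inactive form of the capping enzyme, under doxycycline control, so all 4 groups hold that construct. The groups are induced Xrn1 and induced untreated (doxycycline at 1 ug/ml for 24 h), and uninduced Xrn1 and uninduced untreated (no doxycycline), with 3 exon arrays each. Xrn1 was added in vitro, after cytoplasmic RNA had been extracted and depleted of ribosomal RNA. The labels call the arrays biological replicates without naming separate cultures, so each p measures the spread between these samples, which may be technical. The labels also do not say whether the K294A line is 1 clone.

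Mitotic genes are transcribed late in the cell cycle. Aurora and Polo kinases and cyclin-bound CDK1 start mitosis, kinesins and kinetochore proteins attach chromosomes to the spindle, the spindle checkpoint holds back the anaphase-promoting complex until all chromosomes are attached, and separase then cuts cohesin. Many of their promoters are known to carry a cell cycle homology region (CHR, core letters TTTGAA), which is bound by MuvB complexes, and CCAAT boxes, which are bound by NF-Y. Xrn1 is an exonuclease that removes RNA with a 5′ monophosphate from the 5′ end, whereas a cap protects RNA from it. The study asks which cytoplasmic RNAs lose and regain their cap.

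The promoters were examined because these genes are a textbook case of shared transcription. A window of 300 bases, 250 before and 50 after the RefSeq start (GRCh38.p14), was available for 40 of the 45 genes, 39 of them tested. TTTGAA on either strand was found in 28 of those 39 promoters (71.8%), against 10.6% of the promoters of 13269 tested genes and 15.4% of all 27305 promoters in the table. CCAAT on either strand was found in 30 of 39 (76.9%), against 35.8% of tested genes, and both motifs in 21 (53.8%), against 4.21%. No member's promoter had the 2 motifs overlapping. By role, TTTGAA was present in 6 of 6 promoters of spindle and cytokinesis genes and in 3 of 6 of kinase and checkpoint genes. CCAAT was present in 8 of 8 promoters of the cyclin and anaphase group and in 3 of 6 of the centromere group. A match describes letters in a window and says nothing of binding in these cells. The 250 bases before the start of 4 members are shown, 5′ to 3′ on the gene's strand. These 2 mitotic cyclins and 2 mitotic kinases were chosen because they differ in these motifs. Whether their Xrn1 changes, given below, differ with the motifs was not tested. Capitals mark TTTGAA and also CCAAT or its reverse complement.
CCNB2, cyclin B2, chr15:59104896-59105145, plus strand: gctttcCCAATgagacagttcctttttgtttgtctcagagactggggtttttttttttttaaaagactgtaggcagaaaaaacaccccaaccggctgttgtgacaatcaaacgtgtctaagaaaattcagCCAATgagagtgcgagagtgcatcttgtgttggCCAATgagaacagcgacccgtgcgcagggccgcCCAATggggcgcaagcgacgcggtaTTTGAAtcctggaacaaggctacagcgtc
CCNB1, cyclin B1, chr5:69166900-69167149, plus strand: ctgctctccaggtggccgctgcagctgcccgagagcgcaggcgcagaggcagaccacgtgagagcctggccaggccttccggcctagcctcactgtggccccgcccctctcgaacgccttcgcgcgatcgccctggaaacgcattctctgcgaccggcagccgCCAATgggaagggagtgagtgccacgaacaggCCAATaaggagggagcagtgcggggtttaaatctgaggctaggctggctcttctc
PLK1, Polo-like kinase 1, chr16:23678639-23678888, plus strand: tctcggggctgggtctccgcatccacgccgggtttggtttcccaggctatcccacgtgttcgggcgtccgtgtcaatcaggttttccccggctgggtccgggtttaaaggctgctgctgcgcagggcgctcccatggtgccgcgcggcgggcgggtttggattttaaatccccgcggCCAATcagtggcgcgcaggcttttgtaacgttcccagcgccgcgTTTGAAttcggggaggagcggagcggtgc
AURKB, Aurora kinase B, chr17:8210226-8210475, minus strand: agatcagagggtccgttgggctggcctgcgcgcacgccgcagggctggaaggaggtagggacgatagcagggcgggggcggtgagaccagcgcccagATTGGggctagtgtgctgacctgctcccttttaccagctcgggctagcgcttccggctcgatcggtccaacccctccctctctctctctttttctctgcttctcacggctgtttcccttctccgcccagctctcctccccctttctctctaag
CCNB2 carried 4 CCAAT boxes, beginning 244, 120, 87 and 54 bases before the start, and TTTGAA at 29. In PLK1, CCAAT began at 73 and TTTGAA likewise at 29. CCNB1 had CCAAT at 87 and 55 and no TTTGAA in these 250 bases, and AURKB had a single CCAAT on the opposite strand at 153.

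Levels are log2 values, each gene's level on an array being the mean of its kept probe sets, and changes are differences of log2 levels. Arrays were normalised to one another by the authors, so a change is relative to the other RNAs on the same array. A few arrays stand apart in a way that touches the results. Along the rows of the deposited table, the offset of each array from the 12-array mean was nearly flat, stepped at 1 place and was less even after it. Past the step it ran from 0.36 to 0.65 for uninduced untreated replicate 2 (medians of table segments). The second stretch minus the first was 1.27 for uninduced untreated replicate 2, -1.06 for uninduced Xrn1 replicate 2, -1.07 for induced untreated replicate 2 and -0.45 for induced untreated replicate 1, and lay between -0.34 and 0.33 for the other arrays. Of the 44 members, 22 have most or all of their probe sets in each stretch, and 3 (CDC20, MAD2L1 and NEK2) have probe sets in both. The first-stretch members map to chromosomes 1 to 7, and the second-stretch members to chromosome 9 and higher-numbered autosomes and to X. Results are therefore given on the deposited values and, where a call or value differs, after quantile normalisation of the arrays within each stretch, an alternative chosen after seeing the data. That step lowered the median within-group SD over all genes to 0.242, against 0.394 on the deposited values, and that over the members to 0.315, against 0.428.

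**Figure D1:**
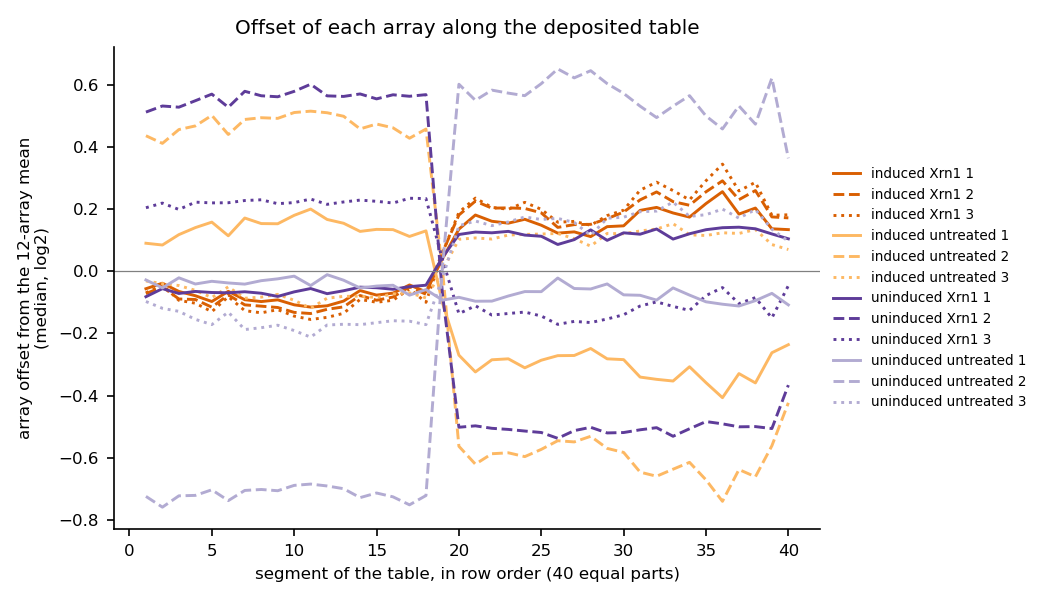
Offset of each array from the mean of the 12 arrays (median over probe sets, log2) in 40 consecutive segments of the deposited table. Colours mark groups and line styles replicates; uninduced untreated replicate 2 steps up by 1.27 between the stretches, while uninduced Xrn1 replicate 2 and induced untreated replicate 2 step down by 1.06 and 1.07.

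RNA treated with Xrn1 held lower relative levels of most mitotic genes. Averaged over both induction states, 40 of 44 were lower and none was higher at a limma adjusted p under 0.05, where 29.8% of all tested genes were lower and 14.2% higher. The members' median change was -1.86, beside 0.05 over all genes. The kinase AURKA changed most, by -3.00, to 12.5% of its untreated relative signal on the linear scale. That share averages -3.64 in uninduced and -2.36 in induced cells, and is not a fraction of transcript left. AURKA was followed by the spindle protein DLGAP5 (-2.87), CDC27 of the anaphase-promoting complex (-2.68), topoisomerase TOP2A (-2.63) and the kinesin KIF23 (-2.62). The standard error of each averaged change was 0.24. After normalisation within stretches, 42 of 44 were lower with a median of -1.78, where 36.1% of all genes were lower and 30.6% higher. After cyclic loess between arrays, another scaling, 36 of 44 were lower and none higher, with a median of -1.49 beside 0.12 over all genes, of which 26.7% were lower and 27.5% higher.

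In uninduced cells 40 of 44 members were lower with Xrn1 (31.8% of all genes lower, 7.24% higher), with a median of -2.13 beside -0.27 over all genes. In induced cells 37 of 44 were lower (17.8% of all genes lower, 21.6% higher), with a median of -1.55 beside 0.10. None was higher in either state. The genes that did not pass were AURKB (-0.78), CENPA (-0.77), SPC25 (-0.70) and CENPE (-0.29) in uninduced cells. In induced cells they were AURKB (0.57), ESPL1 (0.52), UBE2C (0.19), PLK1 (0.17), PTTG1 (-0.09), CENPA (-0.51) and SPC25 (-0.78). Normalised within stretches, the counts were 43 (37.3% of all genes lower, 15.9% higher) and 37 (25.3% lower, 24.1% higher), and the medians -1.96 and -1.55. With each gene's own spread in place of the common one, 21 members were lower in induced cells (6.14% of all genes lower, 2.7% higher). After cyclic loess 29 members were lower in uninduced cells, with a median of -1.20 beside 0.07 over all genes (21.9% of all genes lower and 21.9% higher). In induced cells 37 were lower and 2 higher after cyclic loess, PLK1 by 0.62 and UBE2C by 0.64 (21.9% of all genes lower, 23.4% higher).

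**Figure D2:**
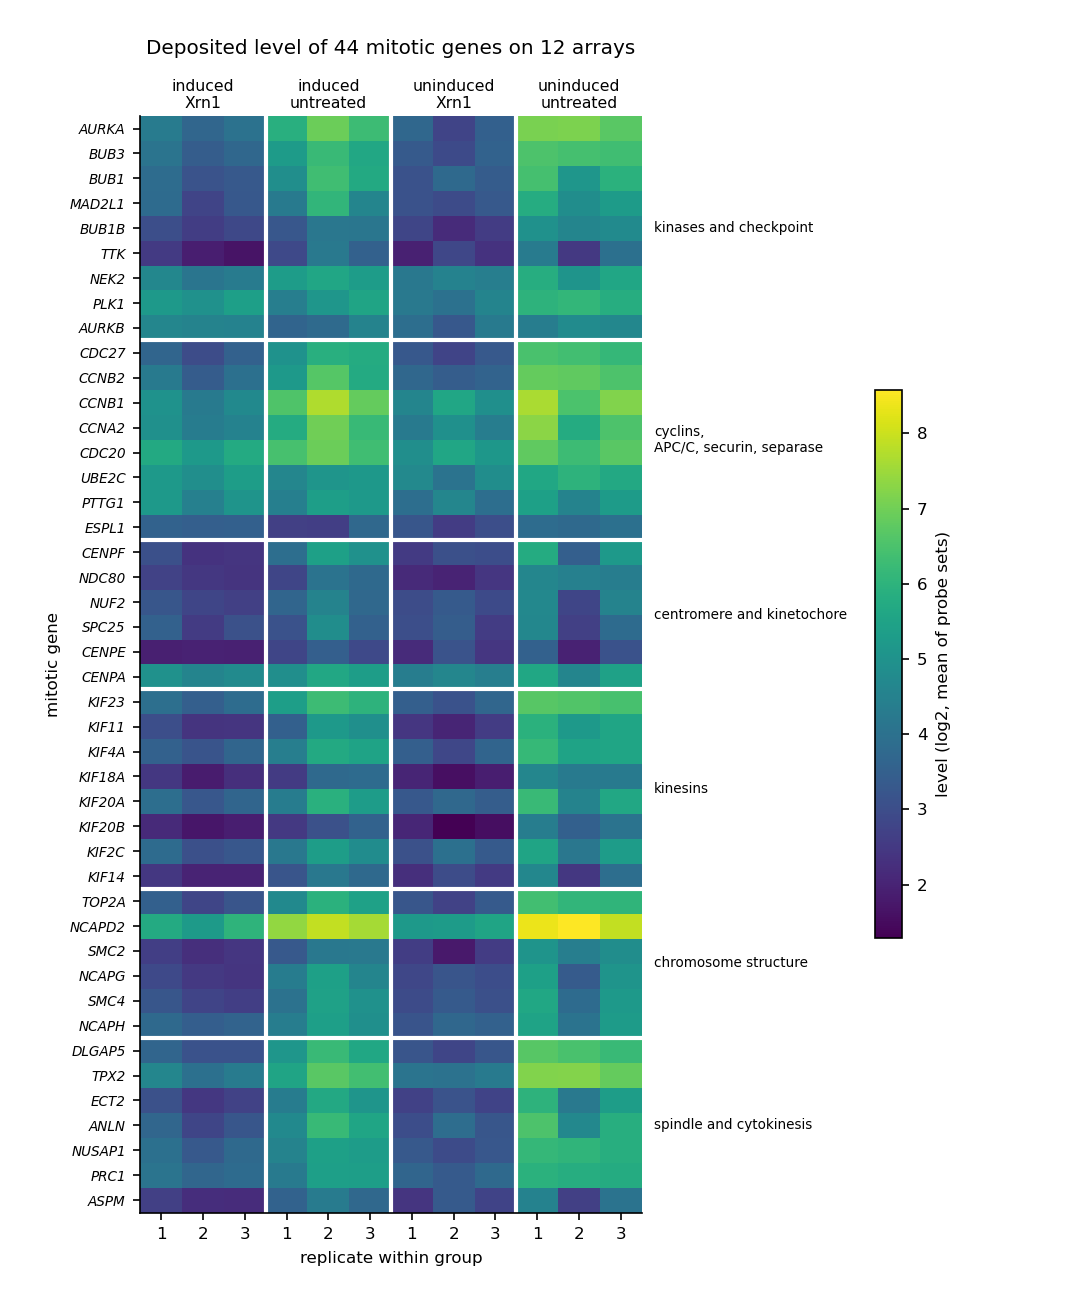
Deposited level (log2) of the 44 mitotic genes on each of the 12 arrays, ordered by role and, within a role, by the averaged Xrn1 change. The Xrn1 columns are darker than the untreated columns of the same induction state for most genes, while uninduced untreated replicate 2 is dark for genes of the first stretch such as CENPF (3.49) and bright for genes of the second such as AURKA (7.14).

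The mean level of the 44 genes was 3.24 to 3.78 on the induced Xrn1 arrays, against 4.37 to 5.40 on the induced untreated arrays. It was 3.29 to 3.41 on the uninduced Xrn1 arrays, against 4.92 to 5.77 on the uninduced untreated arrays. The ranges did not overlap in either state. Array by array, 36 of 44 genes were lower on all 3 Xrn1 arrays than on any untreated array in uninduced cells (33.6% of all genes), and 37 of 44 in induced cells (22.6%). Within stretches these were 43 (40.5%) and 37 (25.8%). Higher on all 3 Xrn1 arrays was no member, where this held on the values within stretches for 21.4% of all genes in uninduced and 32.2% in induced cells. On uninduced untreated replicate 2 the first-stretch members averaged 4.10 and the second-stretch members 5.74, against 5.63 and 5.91 on uninduced untreated replicate 1.

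**Figure D3:**
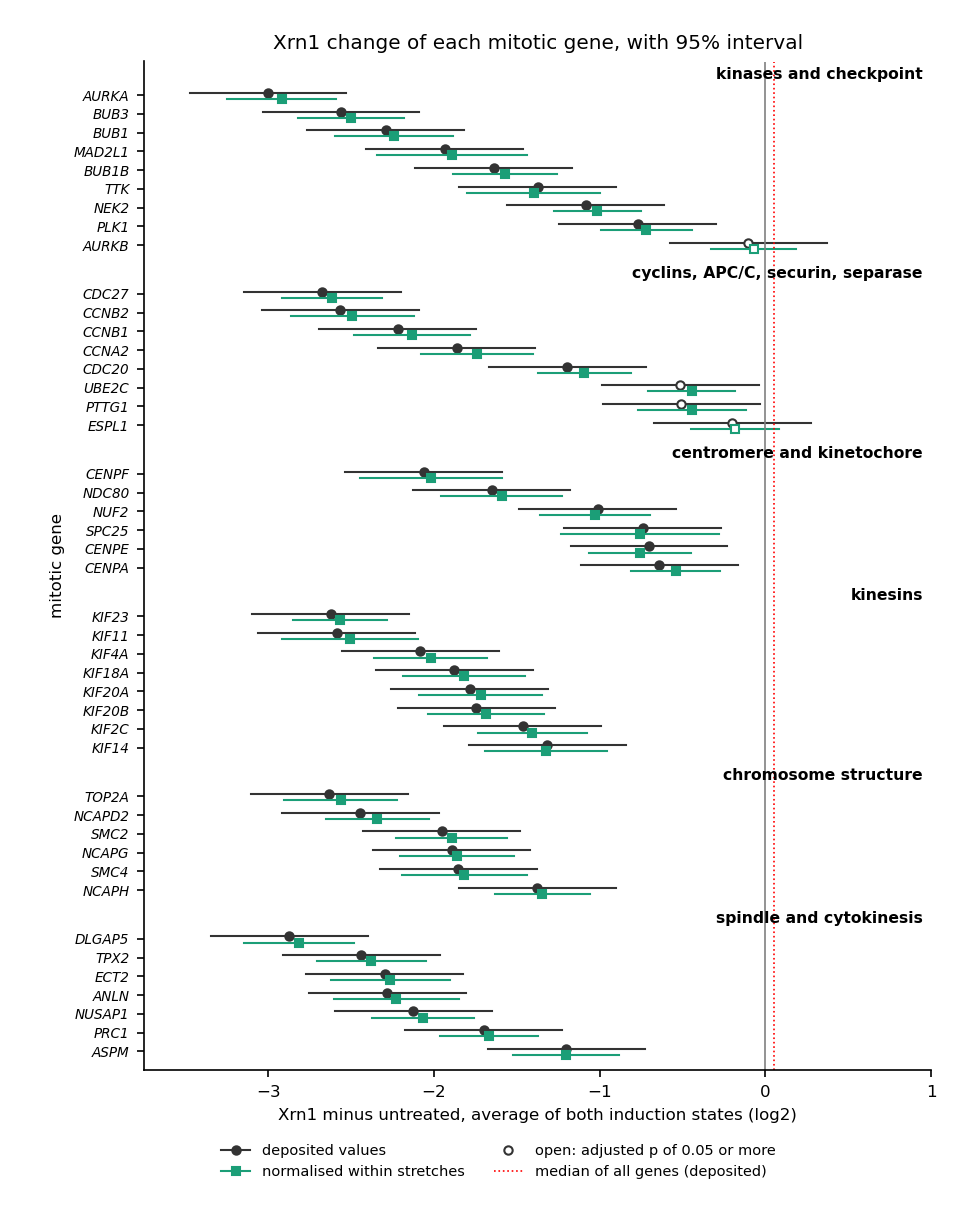
Xrn1 minus untreated (log2, average of both induction states) for each mitotic gene by role, with its 95% confidence interval, on the deposited values (circles) and after normalisation within stretches (squares). Open symbols did not pass; AURKB (-0.10) and ESPL1 (-0.20) lie near the dotted median of all genes (0.05), and all other genes lie further left.

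Kinases and checkpoint proteins fell in 8 of 9 cases on average, with a median of -1.64. AURKA, which matures centrosomes, had 4.32, 3.69 and 4.02 on the induced Xrn1 arrays, against 5.90, 6.94 and 6.28 on the induced untreated arrays. In uninduced cells it had 3.71, 2.79 and 3.52 with Xrn1, against 7.12, 7.14 and 6.70 without. Every Xrn1 array was below every untreated array in both states. The checkpoint proteins BUB3 (-2.56), BUB1 (-2.29), MAD2L1 (-1.93) and BUB1B (-1.64), the checkpoint kinase TTK (-1.37) and the centrosomal kinase NEK2 (-1.08) fell as well. PLK1, which drives mitotic entry and centrosome maturation, changed by -0.77 on average (adjusted p = 0.00507). Cyclic loess left 6 of the 9 lower: the averaged change was then -0.33 for NEK2 (adjusted p = 0.128), and PLK1 (0.08, adjusted p = 0.743) and AURKB (0.33, adjusted p = 0.144) turned to positive values short of the threshold. AURKB, the kinase of the chromosomal passenger complex, was the exception of the group. It had 4.62, 4.54 and 4.51 on the induced Xrn1 arrays, against 3.63, 3.80 and 4.53 on the induced untreated arrays. With Xrn1 it had 3.92, 3.30 and 4.27 in uninduced cells, against 4.38, 4.79 and 4.65 without. The groups overlapped in induced cells and stood apart, lower with Xrn1, in uninduced cells, and the averaged change was -0.10 with a 95% confidence interval from -0.58 to 0.37 (adjusted p = 0.733). AURKA and AURKB were the lowest and the highest of the 44 averaged changes.

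Among cyclins and the machinery of anaphase, 5 of 8 measured genes fell on average, with a median of -1.53. CDC27, a scaffold subunit of the anaphase-promoting complex, had 3.67, 2.99 and 3.54 on the induced Xrn1 arrays, against 5.01, 5.87 and 5.77 on the induced untreated arrays. In uninduced cells it had 3.29, 2.78 and 3.32 with Xrn1, against 6.47, 6.37 and 6.15 without. These groups did not overlap in either state. CCNB2 had 4.28, 3.42 and 3.97 with Xrn1 in induced cells, against 5.24, 6.64 and 5.74 without. The same cyclin had 3.73, 3.42 and 3.60 with Xrn1 in uninduced cells, against 6.85, 6.79 and 6.54 without, so that its averaged change was -2.57. CCNB1 (-2.22), CCNA2, which also acts in S phase (-1.86), and CDC20, the activator that the checkpoint restrains (-1.20), fell too. The other 3 genes had the smallest changes of the group. UBE2C, the ubiquitin-conjugating enzyme of the complex, changed by -0.52 (adjusted p = 0.0689), securin PTTG1 by -0.51 (adjusted p = 0.0724) and separase ESPL1 by -0.20 (adjusted p = 0.495, 95% confidence interval from -0.67 to 0.27). Normalised within stretches, UBE2C (-0.44, adjusted p = 0.0044) and PTTG1 (-0.44, adjusted p = 0.0176) passed and ESPL1 did not (-0.18). After cyclic loess 4 of the 8 were lower, and CDC20 (0.004, adjusted p = 0.986), UBE2C (0.33, adjusted p = 0.138) and PTTG1 (0.20, adjusted p = 0.387) had averaged changes above 0 that did not pass. ESPL1 had 3.58, 3.48 and 3.53 with Xrn1 in induced cells, against 2.67, 2.62 and 3.75 without. In uninduced cells its levels were 3.24, 2.59 and 3.05 with Xrn1 and 3.86, 3.79 and 3.99 without. Groups of ESPL1 overlapped in induced cells only.

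The probe sets listed under CDC2 are given apart, since RefSeq ties the symbol to both CDK1 and POLD1. The array annotation lists 32 probe sets under POLD1 itself and 0 under CDK1, so CDC2 most likely stands for CDK1 here. They averaged 3.15 ± 0.28 (SD, n = 3) in induced Xrn1 samples and 3.53 ± 0.75 in induced untreated samples. In uninduced cells they averaged 2.95 ± 0.24 with Xrn1 and 4.71 ± 0.22 without. Their averaged change was -1.07 (adjusted p = 5.7e-05).

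All 6 centromere and kinetochore genes fell on average, with a median of -0.88. After cyclic loess 5 of the 6 were lower, and CENPA was at 0.13 (adjusted p = 0.543). CENPF, a large protein of the outer kinetochore, had 3.07, 2.34 and 2.41 on the induced Xrn1 arrays, against 3.92, 5.43 and 4.98 on the induced untreated arrays. It had 2.53, 3.07 and 2.99 with Xrn1 in uninduced cells, against 5.78, 3.49 and 5.19 without. The 3.49 is uninduced untreated replicate 2, on which the first-stretch genes are low, and the groups stood apart in both states all the same. The microtubule-binding NDC80 changed by -1.65 and its partners NUF2 by -1.01 and SPC25 by -0.74 (adjusted p = 0.00728). The kinetochore motor CENPE changed by -0.70 on average (adjusted p = 0.0114) and CENPA, the centromeric histone variant, by -0.64 (adjusted p = 0.0222). CENPA had 4.99, 4.58 and 4.78 on the induced Xrn1 arrays, against 4.89, 5.64 and 5.35 on the induced untreated arrays. In uninduced cells it had 4.38, 4.62 and 4.40 with Xrn1, against 5.63, 4.59 and 5.47 without. CENPA overlapped in both states. In single states CENPA, CENPE and SPC25 did not pass in uninduced cells (-0.77, -0.29 and -0.70), and CENPA and SPC25 did not pass in induced cells (-0.51 and -0.78). Within stretches all 3 passed in uninduced cells (-0.87, -0.73 and -1.01). After cyclic loess 2 of the 6 genes were lower there and 5 in induced cells.

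The 8 kinesins, microtubule motors and depolymerases, all fell in each state, with an averaged median of -1.83. KIF23, a motor of the central spindle, had 3.94, 3.50 and 3.87 on the induced Xrn1 arrays, against 5.37, 6.27 and 6.0 on the induced untreated arrays. In uninduced cells KIF23 had 3.49, 3.12 and 3.69 with Xrn1, against 6.67, 6.61 and 6.45 without. KIF14, which also acts in cytokinesis, had 2.46, 2.01 and 2.02 with Xrn1 in induced cells, against 3.19, 4.20 and 3.76 without. KIF14 was at 2.28, 2.98 and 2.54 with Xrn1 in uninduced cells, against 4.65, 2.48 and 3.90 without. KIF23 groups stood apart in both states, while KIF14 overlapped in uninduced cells through uninduced untreated replicate 2. Between them lay KIF11, which pushes spindle poles apart (-2.59), the chromokinesin KIF4A (-2.08), KIF18A, which damps chromosome movement (-1.88), the cytokinesis motors KIF20A (-1.79) and KIF20B (-1.74), and KIF2C, which depolymerises microtubules at centromeres (-1.47).

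Chromosome structure genes fell in 6 of 6 cases in each state, with an averaged median of -1.92. TOP2A, which untangles sister DNA, had 3.52, 2.80 and 3.21 on the induced Xrn1 arrays, against 4.74, 5.93 and 5.45 on the induced untreated arrays. It had 3.23, 2.73 and 3.35 with Xrn1 in uninduced cells, against 6.37, 6.07 and 6.07 without. The 5 condensin subunits followed: NCAPD2 changed by -2.44, SMC2 by -1.95, NCAPG by -1.89, SMC4 by -1.85 and NCAPH by -1.38. NCAPH had 3.77, 3.45 and 3.62 with Xrn1 in induced cells, against 4.38, 5.39 and 4.93 without. In uninduced cells NCAPH had 3.19, 3.73 and 3.56 with Xrn1, against 5.52, 4.07 and 5.29 without. Neither TOP2A nor NCAPH overlapped in either state. In uninduced cells NCAPH did not pass after cyclic loess (-0.66, adjusted p = 0.0568).

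The 7 spindle and cytokinesis genes all fell in each state and had an averaged median of -2.28. DLGAP5, which bundles spindle microtubules, had 3.65, 3.12 and 3.11 on the induced Xrn1 arrays, against 5.12, 6.22 and 5.64 on the induced untreated arrays. With Xrn1 it had 3.22, 2.80 and 3.22 in uninduced cells, against 6.67, 6.48 and 6.22 without. TPX2, which activates AURKA on the spindle (-2.44), ECT2, the RhoA exchange factor of the cleavage furrow (-2.30), the furrow scaffold ANLN (-2.28), NUSAP1 (-2.12) and the central spindle bundler PRC1 (-1.70) lay between it and ASPM. ASPM, a spindle pole protein (-1.20), had 2.68, 2.23 and 2.21 with Xrn1 in induced cells, against 3.57, 4.31 and 3.74 without. In uninduced cells ASPM had 2.42, 3.35 and 2.76 with Xrn1, against 4.50, 2.66 and 4.07 without. ASPM overlapped in uninduced cells, again through uninduced untreated replicate 2, whereas DLGAP5 overlapped in neither state. After cyclic loess ASPM did not pass in uninduced cells (-0.64, adjusted p = 0.124).

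The single probe sets each cover a short part of an exon or transcript. Gene values are means of these same probe sets, so their counts show the spread within genes and are no separate evidence. Of the 1009 kept probe sets of the members (6 to 46 per gene, median 22), 911 (90.3%) had a lower mean with Xrn1 over both states. All of them were lower in 10 of the 44 genes, including all 42 of TOP2A and all 6 of SPC25. In none of the 44 genes were more probe sets higher than lower. AURKB was split, with 7 of 14 lower, and its probe set changes ran from -2.28 to 1.17. ESPL1 had 29 of 46 lower, from -1.62 to 2.57. AURKA had 9 of 9 lower, from -4.20 to -0.70. The share over all kept probe sets is not given, so these counts describe the members alone.

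Induction of K294A changed no member past the threshold. In untreated RNA 0 of 44 passed (0.0296% of all genes were lower and 0.0118% higher), with a median change of -0.43 beside -0.35 over all genes. At an unadjusted p under 0.05, 18 members were lower and none higher, where 27.2% of all genes were lower and 3.56% higher. All 18 belong to the second stretch, and within stretches 8 members were lower at that p (8.26% of all genes lower, 1.32% higher). With each gene's own spread again none passed after adjustment. Values of 14 members were lower on all 3 induced than on all 3 uninduced untreated arrays (17.4% of all genes). Normalised within stretches these were 3, PLK1, PTTG1 and UBE2C (9.15% of all genes lower, 1.14% higher). The median was -0.85 for the second-stretch members and -0.06 for the first-stretch ones, beside -0.66 and 0.25 for all genes of those stretches. Within stretches, the members' medians were -0.39 and -0.36, and their changes ran from -0.59 to -0.11, so all were negative though none passed. The mean level of all genes was then also lower on the induced untreated arrays (3.55, against 3.69 on the uninduced untreated ones). The share of all genes with a negative change is not given. In Xrn1-treated RNA 0 of 44 passed (0.00592% of all genes lower, 0.0533% higher), with a median of 0.18 beside 0.28 (0.00592% lower and 0.0711% higher after normalisation within stretches, where again none passed). On the deposited values 4 members were higher at an unadjusted p under 0.05 (8.66% of all genes higher, 0.426% lower), as were 4 within stretches (6.25% higher, 0.657% lower), and none passed with its own spread. Values of 4 members were higher on all 3 induced than on all 3 uninduced Xrn1 arrays (31.3% of all genes) and those of 1 member lower (3.13%); within stretches 6 were higher (18.6%) and 1 lower (2.28%). The absence of calls in untreated RNA rested on 1 array: without induced untreated replicate 3, 14 members were lower, all of the second stretch (37.9% of all genes lower, 3.06% higher), and within stretches without that array none was.

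The Xrn1 change was compared between induced and uninduced cells with the difference of the changes, induced minus uninduced. It passed for 10 of 44 members, all positive, a weaker fall or none in induced cells, where 20.6% of all genes were positive and 1.23% negative. The members' share was thus near that of all genes. PLK1 led with 1.88 (adjusted p = 0.0112). Its levels were 5.20, 4.96 and 5.39 on the induced Xrn1 arrays, against 4.41, 5.10 and 5.54 on the induced untreated arrays. In uninduced cells PLK1 had 4.24, 3.99 and 4.57 with Xrn1, against 6.0, 6.11 and 5.82 without. PLK1 thus overlapped fully in induced cells (0.17, adjusted p = 0.743) and stood apart in uninduced cells (-1.71). The others were ESPL1 (1.44), NUSAP1 (1.43), UBE2C (1.41), KIF18A (1.36), AURKB (1.35), AURKA (1.29), KIF11 (1.28), NDC80 (1.25) and BUB1B (1.24).

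Values of 3 of these genes show the form of the difference. UBE2C had 5.20, 4.89 and 5.35 on the induced Xrn1 arrays, against 4.62, 5.08 and 5.16 on the induced untreated arrays. It had 4.71, 4.06 and 4.87 with Xrn1 in uninduced cells, against 5.63, 5.99 and 5.69 without. Like PLK1, UBE2C was apart only in uninduced cells. NUSAP1, which crosslinks spindle microtubules, had 3.96, 3.32 and 3.77 with Xrn1 in induced cells, against 4.54, 5.43 and 5.31 without. In uninduced cells NUSAP1 had 3.33, 2.94 and 3.26 with Xrn1, against 6.13, 6.06 and 5.85 without. KIF18A had 2.45, 1.83 and 2.27 with Xrn1 in induced cells, against 2.54, 3.78 and 3.82 without. With Xrn1 it had 2.05, 1.57 and 1.89 in uninduced cells, against 4.62, 4.28 and 4.29 without. NUSAP1 and KIF18A were apart in both states, by more in uninduced cells. All 10 genes belong to the second stretch, where the difference passed as positive for 36.2% of 9594 genes with a median of 1.11, while in the first stretch it passed as positive for 0.0689% of 7262 genes with a median of -0.38. After normalisation within stretches none of the 10 passed. PLK1 then stood at 1.1 (adjusted p = 0.0808), and the other 9 between 0.36 and 0.71. The largest difference among the 44 members was then that of PTTG1, 1.27 (adjusted p = 0.0944). At an unadjusted p under 0.05, 8 of the 44 members were positive (14.2% of all genes positive, 1.07% negative). After adjustment 0.118% of all genes were positive and 0.0118% negative, and the members' median was 0.45 beside 0.26 over all genes. The count of 10 also moved with single arrays: it was 0 without induced Xrn1 replicate 1 or 3, induced untreated replicate 1 or uninduced Xrn1 replicate 2, 1 without uninduced untreated replicate 3, 4 without induced Xrn1 replicate 2 or uninduced Xrn1 replicate 3, 5 and 6 without uninduced untreated replicates 1 and 2, and 17 without induced untreated replicate 3.

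**Figure D4:**
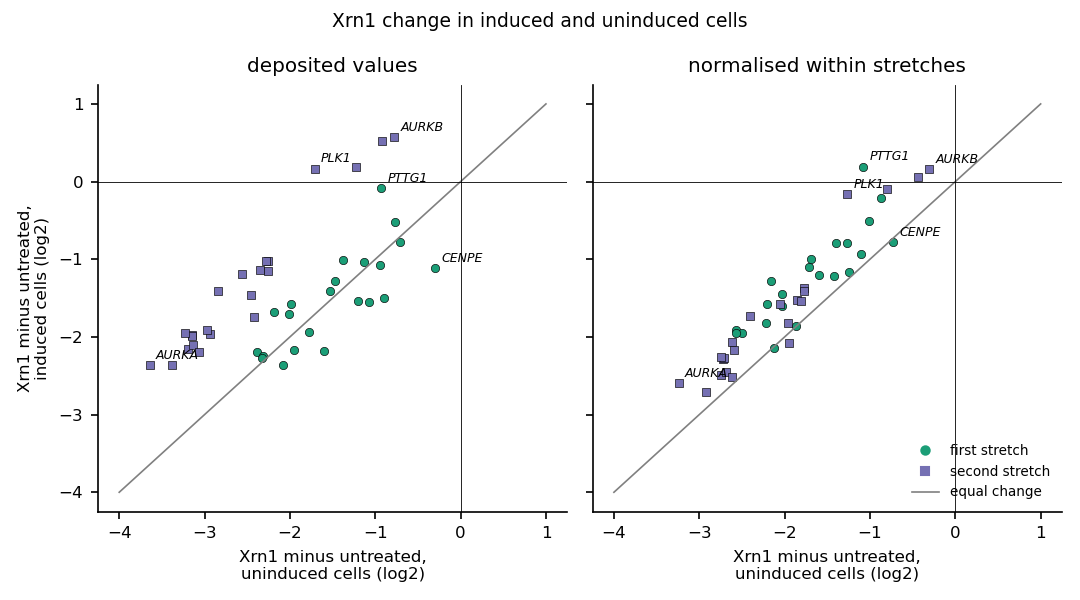
Xrn1 change (log2) in induced cells against that in uninduced cells for the 44 mitotic genes, on the deposited values (left) and after normalisation within stretches (right). Marker shapes give the stretch and the line marks equal change; the second-stretch genes lie apart from the first-stretch ones on the left and among them on the right. Above the line lie 34 genes on the left and 41 on the right, where PTTG1 (0.19 in induced and -1.08 in uninduced cells) and PLK1 (-0.17 and -1.27) lie farthest from it. The share of all genes above the line is not given, so these counts describe the members alone. The median difference of all genes within stretches was positive too. At a limma unadjusted p under 0.05 the difference was positive for 20 members on the left (38.6% of all genes) and 8 on the right (14.2%). It was negative for 0 members on either side (4.06% and 1.07% of all genes).

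The Xrn1 change varied with signal level across all genes, so members were set beside genes of like level, as a description. Levels of different genes also reflect their probes and are signals, not amounts of transcript. Of the 13 members at a mean level from 3 to 4 the median change was -1.65, beside 0.06 for all 7885 genes there. At 4 to 5 it was -2.01 for 18 members, beside -0.43 for 2900 genes. At 5 to 6 it was -2.04 for 8 members, beside -0.98 for 768 genes. The members' median lay below that of the genes of their level in each of these ranges, and the gap between medians narrowed towards higher levels. Single members went the other way: AURKB (-0.10), UBE2C (-0.52) and PLK1 (-0.77) lay above the median of all genes in their range.

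**Figure D5:**
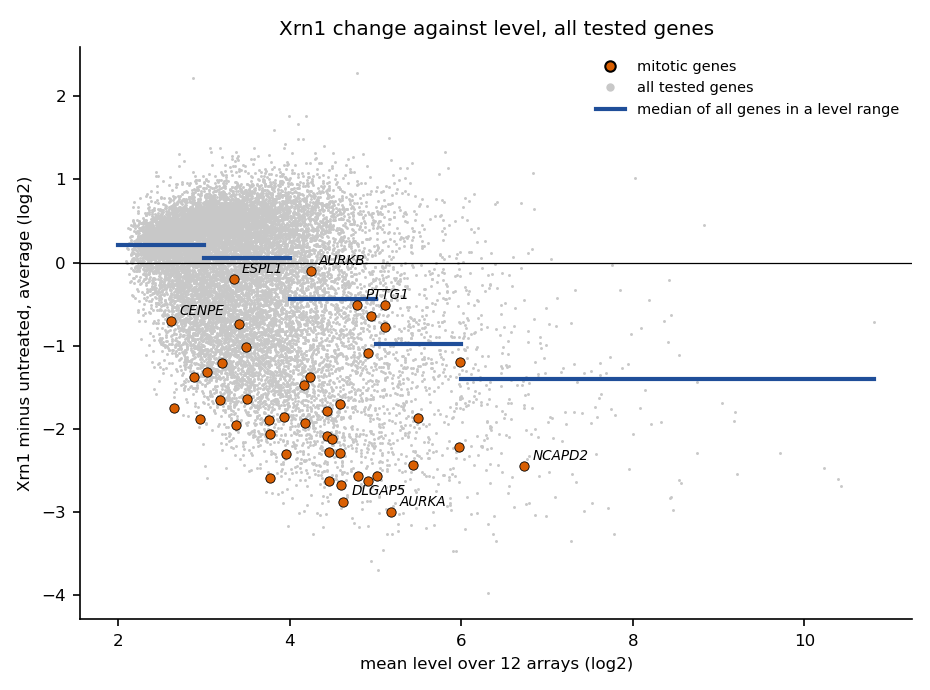
Averaged Xrn1 change (log2) against the mean level over 12 arrays (log2) for all tested genes (grey) and the 44 mitotic genes (orange), with bars for the median of all genes in each level range. Most mitotic genes lie along the lower edge of the grey cloud, with AURKB (-0.10) and ESPL1 (-0.20) near zero.

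Across the 44 members, the averaged change had a Pearson r of -0.40 and a Spearman rho of -0.32 with the log2 length of the gene, introns included (RefSeq, GRCh38.p14). Over 16791 tested genes with such a length these were -0.24 and -0.28. All points share the same 12 arrays. Members with TTTGAA in the promoter window, such as CCNB2 (-2.57) and PLK1 (-0.77) above, had a median change of -1.89 (28 genes). Those without, such as CCNB1 (-2.22) and AURKB (-0.10), had -1.47 (11 genes). With CCAAT the median was -1.87 (30 genes) and without it -1.65 (9 genes). The ranges overlapped almost wholly, from -2.87 to -0.20 with TTTGAA and from -2.68 to -0.10 without.

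Other genes of the cell cycle, from lists drawn up for this comparison, are given beside the members. Of all tested genes, 29.8% were lower and 14.2% higher on average, and 26.7% lower and 27.5% higher after cyclic loess. Of 57 measured further mitotic genes, 42 were lower on average and none higher, with a median of -1.17 (36 lower and 9 higher after cyclic loess). The cohesin subunit RAD21 changed by -3.20, the kinetochore protein ZWILCH by -2.47 and the microtubule polymerase CKAP5 by -2.38. Of 45 DNA replication genes, 38 were lower and none higher, with a median of -1.11 (29 lower and 2 higher after cyclic loess). The primase subunit PRIM1 changed by -2.51, the ribonucleotide reductase subunit RRM1 by -2.40 and the licensing factor CDC6 by -2.17. The difference between these lists and the 44 members was not tested.

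The targeted enzyme's gene, RNGTT, averaged 2.48 ± 0.21 (SD, n = 3) in induced Xrn1 and 4.00 ± 0.67 in induced untreated samples, and 2.79 ± 0.43 in uninduced Xrn1 and 3.79 ± 0.89 in uninduced untreated samples; induction changed it by 0.21 in untreated RNA (adjusted p = 0.685). XRN1, the cell's own gene of that name, changed by -1.02 with Xrn1 on average. Genes above a level of 6 numbered 110 to 298 on the Xrn1 arrays and 327 to 1114 on the untreated arrays, and the part of that signal difference in the members' fall was not tested. Of the osteosarcoma and mesenchymal markers, COL1A1 (8.42), SPARC (7.56), VIM (6.72) and CD44 (4.73) averaged above 4 while RUNX2 (3.46), COL1A2 (3.54) and ALPL (2.78) did not. Of 12 measured markers of blood, epithelium, liver, brain and endothelium, KRT8 (6.78), KRT18 (5.63) and CD3E (4.16) did. The summed level of those 12, as a mean per gene, was 3.73 to 3.93 in induced Xrn1, 3.33 to 3.88 in induced untreated, 3.29 to 3.72 in uninduced Xrn1 and 3.68 to 3.99 in uninduced untreated samples. In comparisons of induced with uninduced cells, fewer mitotic cells and less mitotic RNA per cell cannot be told apart in bulk RNA. Xrn1 was added after extraction, to RNA and not to cells.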

How the data were processed

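Cytoplasmic RNA of 12 U2OS samples was hybridised to exon arrays, 1 array per sample. The authors deposited log2 values per probe set, made with RMA (oligo package) per the submitters' processing notes; software versions are not stated there. The platform annotation gives a single gene symbol to 357604 of 1411399 probe sets. Probe sets were kept if their mean over the arrays exceeded the median of all probe sets (2.04), and a gene's value is the mean of its kept probe sets. Testing required at least 3 per gene, which 16883 genes met. Gene values were fitted with limma 3.58.1 (lmFit and eBayes, R 4.3.3), with 4 group means over all arrays, 6 contrasts, Benjamini-Hochberg adjustment over all genes and a threshold of 0.05. The estimated prior was infinite, which gives each gene an SD of 0.418. The fit was tested on simulated data. Having 3 arrays per group limits the precision.

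The deposited values were also quantile normalised within each of 2 stretches of table rows (650745 and 760654 probe sets). Values in every array are given for the members with the largest and smallest averaged change in each role, and for up to 6 members past the threshold in the difference of both changes, by p. All other members are given in at least 1 contrast, with up to 3 genes from each other list. CCNB2 was added to the first set after its values were seen. Replicate numbers follow the sample numbers in the titles, 1 of which carries another replicate number, and the main fit did not pair samples by them. The members and lists were chosen with earlier results of these data known. Promoter sequences and gene lengths come from RefSeq (GRCh38.p14).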

Additional observations from a re-analysis of the deposited data

Results flagged for a closer look

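The Xrn1 change differed between induced and uninduced cells for 10 members, tested as the difference of the changes (induced minus uninduced) in the fit over all genes. All were positive, as was the difference for 20.6% of all genes and 36.2% of the genes of the second stretch, in which all 10 lie. The members' share was near that of all genes, so the count is not particular to them. The differences were 1.88 (limma adjusted p = 0.0112) for PLK1, 1.44 (adjusted p = 0.0301) for ESPL1, 1.43 (adjusted p = 0.0307) for NUSAP1, 1.41 (adjusted p = 0.0323) for UBE2C and 1.36 (adjusted p = 0.0358) for KIF18A. They were 1.35 (adjusted p = 0.0372) for AURKB, 1.29 (adjusted p = 0.0435) for AURKA, 1.28 (adjusted p = 0.044) for KIF11, 1.25 (adjusted p = 0.0474) for NDC80 and 1.24 (adjusted p = 0.0485) for BUB1B. Normalised within stretches, the differences were 1.1 for PLK1, 0.71 for UBE2C, 0.67 for NUSAP1, 0.64 for AURKA, 0.49 for ESPL1 and for KIF11, 0.48 for KIF18A, 0.47 for AURKB, 0.40 for BUB1B and 0.36 for NDC80, with adjusted p from 0.0808 to 0.622.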

How the results depend on the processing

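The falls with Xrn1 held in most settings, and the difference between induction states in few. The count of members past the threshold in that difference, 10 on the deposited values, was 13 with no filter on dim probe sets and 8 with a trended and robust prior, but 1 with the median of probe sets, 3 with probe sets above the upper quartile, 4 with genes of at least 1 kept probe set, 1 after centring on the median gene, 0 after cyclic loess and 0 with each gene's own spread. It was also 0 without uninduced untreated replicate 2 and uninduced Xrn1 replicate 2, and 0 in each of the 5 settings that scaled the arrays within stretches (quantile normalisation, the same with own spread, without those 2 arrays or without induced untreated replicate 3, and centring), which were chosen after seeing the data. Leaving out 1 array gave 0 to 17 for the difference, 35 to 42 (of 40) for Xrn1 in uninduced cells, 30 to 39 (of 37) in induced cells, 37 to 42 (of 40) for the average, 0 to 14 for induction in untreated RNA and 0 for induction in Xrn1-treated RNA. Xrn1 in induced cells gave 21 with own spread. In the titles an untreated and an Xrn1 array share each sample number. Their deviations correlated from -0.708 to 0.125 on the deposited values and from -0.439 to 0.085 within stretches. With 3 arrays per group this does not settle whether they are paired. With the replicate number as a block the difference passed for 6 members, and with the sample number as a block for 0; the other counts of calls stayed within 1.5 times under either block. Cyclic loess turned the sign of NEK2 (0.0225), CDC20 (0.209), UBE2C (0.016) and PTTG1 (0.165) in uninduced cells, and of PLK1 (0.0752), CDC20 (0.0039) and CENPA (0.133) in the average, among members past the threshold there. Among the others it turned AURKB (0.0352) and CENPA (0.399) in uninduced cells, PTTG1 (0.227) in induced cells and AURKB (0.334), UBE2C (0.328) and PTTG1 (0.196) in the average. The cause was not tested. Over the members past the threshold, 1076 of 1120 repeats kept direction and call in uninduced cells, 1001 of 1036 in induced cells, 1100 of 1120 in the average and 77 of 280 in the difference.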
